A study of Sus scrofa with 18 samples.

Results

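The 8 genes described here carry glutamate into synaptic vesicles, take it back up from outside the cell, or return it to neurons as glutamine, and they were followed in whole fetal brains of pigs at 3 days of gestation. The members were SLC17A6, SLC17A7 and SLC17A8 (vesicular loading), SLC1A1 and SLC1A6 (uptake), and GLUL, SLC38A1 and SLC38A3 (recycling), chosen by gene name from the 31908 genes counted. The gene table named 7 of them, and SLC38A1, which stood there without a name, was found through its Ensembl gene ID, so that no member was missing. Fetuses of both sexes came from Landrace x Large White gilts, with no treatment labelled, and were sampled on gestation day (GD) 45, 60 or 90. Each of the 6 groups of sex and day held 3 fetuses, and every litter gave a female and a male, as read from the litter size that pairs of labels shared at a day. The 18 libraries were made from oligo(dT)-selected mRNA and held 15118843 to 19729783 counts in genes (median 16413097). The brain was not divided into regions before RNA was taken, so that region and cell type could not be separated, and a change in the number of cells of a type could not be told apart from a change in RNA per cell.

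Glutamate is the main excitatory transmitter of the vertebrate brain. Neurons load it into vesicles through the SLC17A6, SLC17A7 and SLC17A8 proteins (VGLUT2, VGLUT1 and VGLUT3), of which VGLUT1 is best known from neurons of the cerebral cortex, hippocampus and cerebellar granule layer and VGLUT2 from the thalamus, midbrain and hindbrain. After release, glutamate is removed by carriers of the SLC1 family, mostly on astrocytes. Astrocytes turn it into glutamine with glutamine synthetase (GLUL) and export the glutamine, in part through SLC38A3 (SNAT3), and neurons import it through carriers such as SLC38A1 (SNAT1). SLC1A1 (EAAT3) is the neuronal uptake carrier and SLC1A6 (EAAT4) that of cerebellar Purkinje cells.

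The members lie on 6 chromosomes of the Sscrofa11.1 assembly. SLC17A6 (ENSSSCG00000013343) is at chr2:37098992-37138475 on the minus strand, SLC17A7 (ENSSSCG00000003170) at chr6:54511121-54521611 on the minus strand and SLC17A8 (ENSSSCG00000038946) at chr5:83741715-83800809 on the minus strand. SLC1A1 (ENSSSCG00000005222) is at chr1:217366499-217441674 on the minus strand and SLC1A6 (ENSSSCG00000013833) at chr2:62601758-62623371 on the plus strand. GLUL (ENSSSCG00000015545) is at chr9:123751548-123762547 on the minus strand, SLC38A1 (ENSSSCG00000000807) at chr5:77009862-77058427 on the minus strand and SLC38A3 (ENSSSCG00000011397) at chr13:32683191-32704535 on the plus strand. The Ensembl and RefSeq annotations placed the start of SLC17A7, SLC1A1, SLC1A6 and GLUL within 31 bases of each other, but those of SLC17A8 and SLC38A1 were 8663 and 18296 bases apart. Another 2 annotated genes lie within SLC38A1 and share 0 exonic bases with it.

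The 250 bases before the outermost annotated start are shown for those 4 genes with well-placed starts, because SLC17A7, GLUL and SLC1A1 rose together late in gestation and SLC1A6 did not. The sequences are on the strand of the gene, 5′ to 3′, and capitals mark the motifs searched on both strands: the GC box (GGGCGG), the E-box (CANNTG), the CCAAT box (CCAAT), the TATA box (TATAAA) and the core of the cAMP response element (TGACG).
SLC17A7, chr6:54521617-54521866, minus strand: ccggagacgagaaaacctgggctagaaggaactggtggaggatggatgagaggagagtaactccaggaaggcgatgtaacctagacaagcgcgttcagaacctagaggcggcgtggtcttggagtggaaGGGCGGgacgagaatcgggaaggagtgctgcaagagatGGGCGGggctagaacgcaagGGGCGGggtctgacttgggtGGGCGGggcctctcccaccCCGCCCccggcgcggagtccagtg
GLUL, chr9:123762576-123762825, minus strand: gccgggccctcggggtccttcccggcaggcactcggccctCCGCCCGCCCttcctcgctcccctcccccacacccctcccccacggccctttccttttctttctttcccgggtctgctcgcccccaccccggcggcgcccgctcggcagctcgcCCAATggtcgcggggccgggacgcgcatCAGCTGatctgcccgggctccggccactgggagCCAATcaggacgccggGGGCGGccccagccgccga
SLC1A1, chr1:217441675-217441924, minus strand: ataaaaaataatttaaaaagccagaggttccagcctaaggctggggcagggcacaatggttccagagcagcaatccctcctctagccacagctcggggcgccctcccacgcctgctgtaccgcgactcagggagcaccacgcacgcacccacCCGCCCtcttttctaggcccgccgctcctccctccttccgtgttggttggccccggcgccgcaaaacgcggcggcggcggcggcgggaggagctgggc
SLC1A6, chr2:62601508-62601757, plus strand: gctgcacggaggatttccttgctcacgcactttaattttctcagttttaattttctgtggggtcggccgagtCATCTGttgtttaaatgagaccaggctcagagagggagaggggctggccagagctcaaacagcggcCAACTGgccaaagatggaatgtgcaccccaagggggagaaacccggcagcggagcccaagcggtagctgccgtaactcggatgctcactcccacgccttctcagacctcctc
SLC17A7 held 5 GC boxes and no other motif of the search. GLUL held 3 GC boxes, of which a pair overlapped, together with 2 CCAAT boxes and 1 E-box. SLC1A1 held 1 GC box, and SLC1A6 held 2 E-boxes and no GC box. Of the members not shown, SLC17A6 also rose from GD60 to GD90 and held 0 GC boxes, 1 E-box and 1 TATA box. SLC38A3 rose too and held 1 GC box and 3 E-boxes. SLC38A1 and SLC17A8, not called in that step, held 1 and 0 GC boxes. The annotated starts of SLC17A6 and SLC38A3 lay 460 and 60 bases apart. Of 17255 windows of the same length before annotated genes, 49.1% held a GC box, 60.5% an E-box, 31.1% a CCAAT box, 21.99% that core and 9.21% a TATA box. GC content was 63.2% for SLC17A7, 76.0% for GLUL, 65.2% for SLC1A1 and 56.0% for SLC1A6. These matches describe letters only and were not tied to any measurement of binding.

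From GD60 to GD90, 5 of the 8 members rose with both sexes combined: SLC17A7, GLUL, SLC38A3, SLC17A6 and SLC1A1. From GD45 to GD60, SLC17A7 alone passed the test, and over the whole span from GD45 to GD90, SLC38A1 passed as well, for 6 members. The call of SLC38A1 (adjusted p = 0.0476) held in 4 of 8 other settings and in 3 of 9 fits that left out a litter, and was lost with an estimated correlation of litter-mates (adjusted p = 0.108). No member passed as lower. The tests were edgeR quasi-likelihood tests on the counts of 9 litters (3 a day), with p-values adjusted by Benjamini and Hochberg over 17003 genes and called under 0.05. Among all genes tested, 11.6% were called from GD45 to GD60, 37.4% from GD60 to GD90 and 53.3% from GD45 to GD90, and the shares called higher were 6.75%, 18.7% and 26.5%. The median log2 change of the members was 0.29, 0.61 and 1.04 over the same steps, beside 0.00, −0.02 and −0.02 for all genes tested. Any 2 of these comparisons share the litters of a day.

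**Figure D1:**
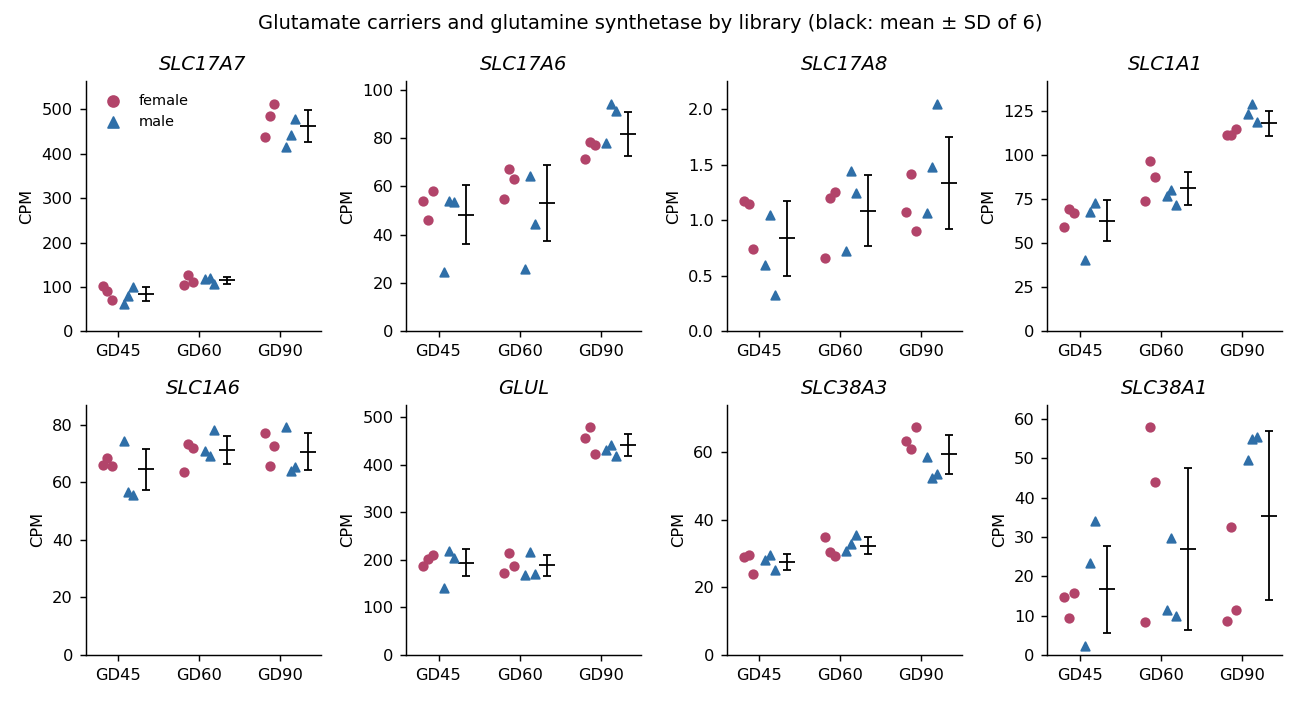
Level of each of the 8 members in each of the 18 libraries, in counts per 1000000 (CPM) on a linear axis from 0, by gestation day; each point is 1 fetus (circles female, triangles male) and black bars give the mean ± SD of 6. SLC17A7, SLC17A6, GLUL, SLC38A3 and SLC1A1 have all 6 GD90 libraries above every earlier library, SLC1A6 stays between 55.5 and 79.1 CPM, and SLC38A1 spreads over a wide range within each day.

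SLC17A7, the VGLUT1 gene, changed most among the members. In CPM (the counts of a gene per 1000000 counts of its library), the GD45 females held 102, 90.6 and 71.4 and the GD45 males 60.4, 80.5 and 101. The GD60 females held 104, 127 and 112 CPM and the GD60 males 117, 121 and 106. The GD90 females held 438, 486 and 513 CPM and the GD90 males 415, 443 and 477. All libraries of a day lay above all those of the day before. On the log2 scale SLC17A7 rose by 0.44 (SE 0.087, adjusted p = 0.00828) from GD45 to GD60 and by 2.04 (SE 0.090, adjusted p = 2.35e-07) from GD60 to GD90. The later rise was called in females (2.15, SE 0.14) and in males (1.94, SE 0.14).

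SLC17A6, the VGLUT2 gene, rose less and only in the later step. The GD45 females held 53.8, 45.9 and 58.1 CPM and the GD45 males 24.7, 53.8 and 53.5. The GD60 females held 54.9, 67.1 and 63.2 CPM and the GD60 males 25.9, 64.3 and 44.4. The GD90 females held 71.4, 78.4 and 77.0 CPM and the GD90 males 78.0, 94.3 and 91.3. The GD45 and GD60 ranges overlapped and all 6 GD90 libraries lay above both, with 1 low male at each earlier day. Those 2 low males were both the males of litters of 8, the GD45 one with 24.7 and the GD60 one with 25.9 CPM. On the log2 scale SLC17A6 changed by 0.14 (SE 0.15, adjusted p = 0.59) from GD45 to GD60 and rose by 0.64 (SE 0.15, adjusted p = 0.00582) from GD60 to GD90. Over the whole span it rose by 0.78 (SE 0.15, adjusted p = 0.00103).

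SLC17A8, the VGLUT3 gene of scattered non-classical glutamate neurons, was at the edge of detection. It ran from 0.326 to 1.17 CPM (median 0.892) at GD45, from 0.659 to 1.44 (median 1.22) at GD60 and from 0.907 to 2.05 (median 1.25) at GD90. The days overlapped, and the log2 change from GD60 to GD90 was 0.32 (SE 0.33, adjusted p = 0.469). No change was detected at these low counts.

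The ratio of SLC17A7 to SLC17A6 over the whole genes was higher in every GD90 library than in any earlier one. With SLC17A6 counted outside its last exon, the days overlapped (GD45 6.58 to 61.1, GD60 6.70 to 34.6, GD90 15.4 to 46.8) and the log2 difference between GD60 and GD90 was 0.78 in place of 1.33. Taken from the counts of the whole genes, it was 1.89, 1.97 and 1.23 in the GD45 females and 2.45, 1.50 and 1.88 in the GD45 males. It was 1.90, 1.89 and 1.77 in the GD60 females and 4.52, 1.88 and 2.39 in the GD60 males. It was 6.13, 6.20 and 6.66 in the GD90 females and 5.32, 4.70 and 5.23 in the GD90 males. The GD90 libraries did not overlap the others, although the male of the GD60 litter of 8, at 4.52, came close to the lowest of them. In that library SLC17A6 was low, at 25.9 CPM, and SLC17A7 was within the range of its day, at 117 CPM.

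Averaged over the female and male of a litter, the log2 ratio was 0.83 at GD45, 1.17 at GD60 and 2.50 at GD90 (n = 3 litters each). It differed by 0.34 (SE 0.24) from GD45 to GD60, with an exact two-sided permutation p of 0.3. It was 1.33 higher (SE 0.20) at GD90 than at GD60 and 1.67 higher (SE 0.15) than at GD45, with an exact permutation p of 0.1 for each. With 3 litters against 3, that is the smallest p the 20 arrangements allow, so that no pair of days could pass 0.05. Across the 3 days at once, the sum of squares between days gave an exact permutation p of 0.0107 over all arrangements of the 9 litters, of which the smallest possible is 0.00357. Female libraries alone gave a GD90 minus GD60 difference of 1.77 and male libraries alone 0.90. That difference in the ratio was not tested, and for SLC17A6 itself the change did not differ between the sexes beyond the threshold (interaction of sex and day 0.59, SE 0.33, adjusted p = 0.307).

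**Figure D2:**
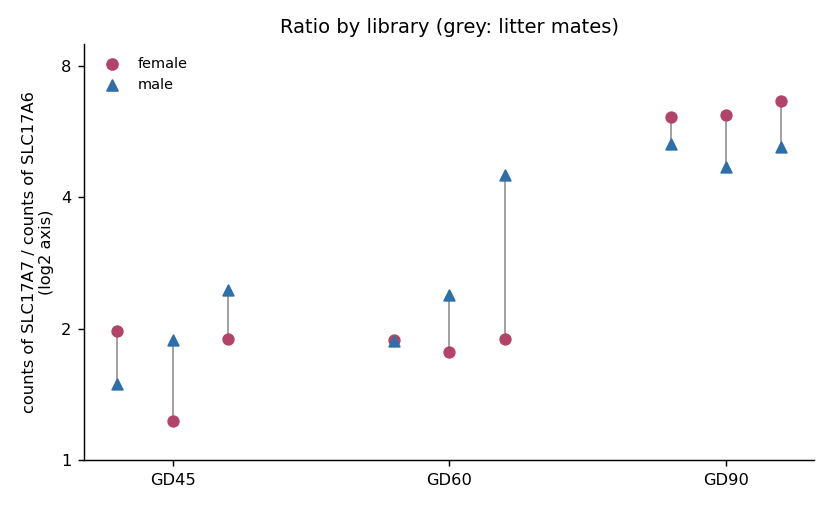
Ratio of SLC17A7 to SLC17A6 counts in each of the 18 libraries, on a log axis, by gestation day; circles are females, triangles males, and grey lines join litter-mates. GD45 runs from 1.23 to 2.45, GD60 from 1.77 to 4.52 and GD90 from 4.70 to 6.66.

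Apart from this ratio of counts, levels of different genes were compared per length, as CPM per kilobase of exonic sequence (FPKM, computed here from the length in the gene table). On that scale SLC17A7 made up a median of 72.3% of the summed level of the 3 vesicular carriers at GD45 and at GD60 and 88.7% at GD90. SLC17A6 made up 27.3%, 27.3% and 11.1%, and SLC17A8 0.596%, 0.555% and 0.183%. The summed level of the carriers had a median of 40.3, 49.9 and 174 FPKM at the 3 days. The per-length ratio of SLC17A7 to SLC17A6 had a median of 2.64 at GD45, 2.65 at GD60 and 8.01 at GD90.

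The order of the members per length changed at GD90. At GD45 GLUL led with a median of 58.9 FPKM, followed by SLC17A7 at 28.3 and SLC1A6 at 28.04, which overlapped. SLC1A1 (17.2) and SLC17A6 (12.7) overlapped next, then SLC38A3 (4.99) and SLC38A1 (4.48), and SLC17A8 was last at 0.222. The highest SLC38A1 library of GD45, at 9.98 FPKM, also lay above the lowest SLC17A6 library, at 5.82. At GD60 GLUL (52.4), SLC17A7 (37.8), SLC1A6 (30.4), SLC1A1 (20.0) and SLC17A6 (13.9) did not overlap their neighbours in this order, except that the last overlapped SLC38A1 (6.04). At GD90 SLC17A7 stood first at 152 FPKM and above GLUL (126) in each of the 6 libraries, although their ranges overlapped between libraries. SLC1A1 (29.7) and SLC1A6 (29.5) then overlapped, as did SLC38A1 (11.99) and SLC38A3 (10.4), with SLC17A6 (18.5) between these pairs and SLC17A8 again last.

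SLC1A1, the carrier on neurons, rose late. It ran from 40.5 to 72.6 CPM (median 67.6) at GD45, from 72.0 to 96.9 (median 78.6) at GD60 and from 111 to 129 (median 117) at GD90. All GD90 libraries lay above all earlier ones, while the highest GD45 library lay just above the lowest GD60 library. The log2 change from GD60 to GD90 was 0.57 (SE 0.11, adjusted p = 0.00259). That from GD45 to GD60 was 0.37 (SE 0.11, adjusted p = 0.0571) and lay on the threshold: it was called without the GD45 litter of 17 (0.45, adjusted p = 0.0499) and by the likelihood ratio test, DESeq2 and the litter block.

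SLC1A6, the carrier of Purkinje cells, did not pass between any days. It ran from 55.5 to 74.4 CPM (median 65.9) at GD45, from 63.5 to 78.1 (median 71.5) at GD60 and from 63.9 to 79.1 (median 69.3) at GD90, and the 3 ranges overlapped. The log2 change was 0.14 (SE 0.11, adjusted p = 0.442) in the first step and 0.02 (SE 0.11, adjusted p = 0.923) in the second. In males from GD45 to GD60 it changed by 0.17 (SE 0.16), but was called higher without the male of the GD45 litter of 8 (0.43, adjusted p = 0.0283) and without both fetuses of that litter (0.45, adjusted p = 0.0279). Purkinje cell markers as a list summed to 80.4 to 133 CPM at GD45, 78.5 to 158 at GD60 and 179 to 311 at GD90. Of its 8 genes, 5 passed as higher from GD60 to GD90, where 18.7% of all genes tested did. SLC1A6 did not pass in that step.

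GLUL, the glutamine synthetase gene, was flat to GD60 and then rose. It ran from 141 to 219 CPM (median 203) at GD45, from 167 to 217 (median 181) at GD60 and from 419 to 479 (median 436) at GD90. The first 2 days overlapped and no GD90 library came near them. The log2 change was −0.04 (SE 0.11, adjusted p = 0.862) in the first step, and GLUL rose by 1.25 (SE 0.11, adjusted p = 1.37e-05) in the second.

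SLC38A3, through which astrocytes release glutamine, also passed in the second step and not in the first under the main settings. It ran from 23.9 to 29.5 CPM (median 28.6) at GD45, from 29.4 to 35.5 (median 31.9) at GD60 and from 52.4 to 67.3 (median 59.8) at GD90. The GD45 and GD60 ranges met at their ends and the GD90 range stood clear of them. The log2 change was 0.24 (SE 0.11, adjusted p = 0.166) in the first step and 0.89 (SE 0.10, adjusted p = 9.34e-05) in the second.

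Astrocyte markers rose from GD60 to GD90, as did GLUL, SLC38A3 and the markers of other glia. Of 9 astrocyte markers counted, 6 passed as higher from GD60 to GD90, where 18.7% of all genes tested did. From GD45 to GD60, 3 passed as higher and 1 as lower. The summed level of the 9 ran from 382 to 946 CPM at GD45, from 798 to 1118 at GD60 and from 2463 to 2905 at GD90. GFAP, a filament gene of astrocytes, went from 108 to 144 CPM at GD60 to 604 to 922 at GD90. GFAP also rose between GD45 (14.8 to 54.4 CPM) and GD60, when GLUL did not pass. Oligodendrocyte markers summed to 82.1 to 117 CPM at GD60 and 1896 to 3226 at GD90, and 7 of 7 tested passed as higher. In the lists of oligodendrocyte precursors and of microglia, 6 of 6 tested passed as higher in each. The part that a change in cell types had in the rise of the 2 genes was not tested.

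Markers of cortical excitatory and of thalamic, midbrain and hindbrain neurons did not pass as higher with SLC17A7 from GD60 to GD90. General neuron markers in part did. Among all genes tested, 18.7% passed as higher and 18.7% as lower in that step. Markers of cortical excitatory neurons summed to 1272 to 2466 CPM at GD45, 1460 to 1794 at GD60 and 671 to 809 at GD90, and 6 of 9 passed as lower from GD60 to GD90. Those of thalamic, midbrain and hindbrain neurons summed to 217 to 359, 53.3 to 204 and 63.6 to 117 CPM, with 4 of 12 lower from GD60 to GD90, and the lowest value of GD60, 53.3, came from the same male as the ratio of 4.52. General neuron markers summed to 7309 to 8710, 8635 to 10535 and 9760 to 11351 CPM, and 5 of 9 passed as higher and none as lower from GD60 to GD90. Cerebellar granule cell markers summed to 203 to 431 CPM at GD45, 113 to 273 at GD60 and 102 to 344 at GD90, the highest of GD90 from the male of the litter of 10, and 1 of 7 tested passed as lower from GD60 to GD90. The pituitary hormone gene GH1 reached 58.1 CPM in the female of the GD60 litter of 8. The part of these lists in the members' values was not tested.

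**Figure D3:**
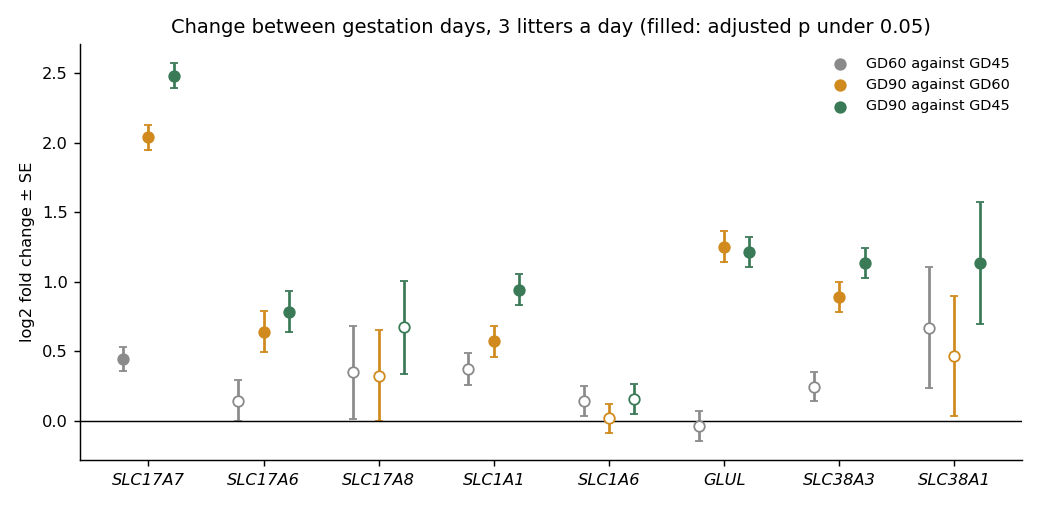
Log2 change of each member between gestation days, from the edgeR fits on litters, with bars of ± 1 standard error, 1 colour a comparison, and filled points for adjusted p under 0.05. SLC17A7, GLUL, SLC38A3, SLC17A6 and SLC1A1 lie above 0 with filled points from GD60 to GD90, and SLC1A6 lies at 0.02.

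SLC38A1, the neuronal glutamine importer, varied more between fetuses of a group than between days. The GD45 females held 14.9, 9.42 and 15.9 CPM and the GD45 males 2.31, 23.4 and 34.2. The GD60 females held 8.36, 57.9 and 43.9 CPM and the GD60 males 11.5, 29.9 and 10.0. The GD90 females held 8.57, 32.5 and 11.4 CPM and the GD90 males 49.7, 54.9 and 55.6. All days overlapped, and only the GD90 males stood together. The log2 change was 0.67 (SE 0.44, adjusted p = 0.364) in the first step and 0.46 (SE 0.43, adjusted p = 0.429) in the second. Over the whole span it was 1.13 (SE 0.44, adjusted p = 0.0476), and this call was lost when any of 6 of the 9 litters was left out in turn, with the change between 0.84 and 1.26 and the adjusted p up to 0.143. It was also lost with DESeq2, with the litter block and without TMM scaling factors.

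SLC38A1 levels ran with the share of a library's counts that fell in long genes. Genes with over 6000 exonic bases, of which there were 6017, took 24.7 to 32.6% of counts at GD45, 29.7 to 34.9% at GD60 and 28.3 to 36.0% at GD90. The male of the GD45 litter of 8 was lowest in both measures, with 24.7% and 2.31 CPM. The 9 libraries with the highest shares held 23.4 CPM or more, and the other 9 held 15.9 or less. SLC38A1 has 3428 exonic bases and was not among the long genes. With that share as a covariate, an analysis added after the data were seen, its change from GD45 to GD90 was 0.00 (adjusted p = 0.993) in place of 1.13, while SLC17A7, GLUL, SLC1A1, SLC38A3 and SLC17A6 kept their call, SLC17A6 with a change of 0.43 in place of 0.78. In that fit SLC1A6 was called higher from GD45 to GD90 (0.32, adjusted p = 0.0235), beside 0.16 (adjusted p = 0.238) without it, and SLC38A3 was called from GD45 to GD60 (0.36, adjusted p = 0.0196). What sets the share of long genes was not tested.

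**Figure D4:**
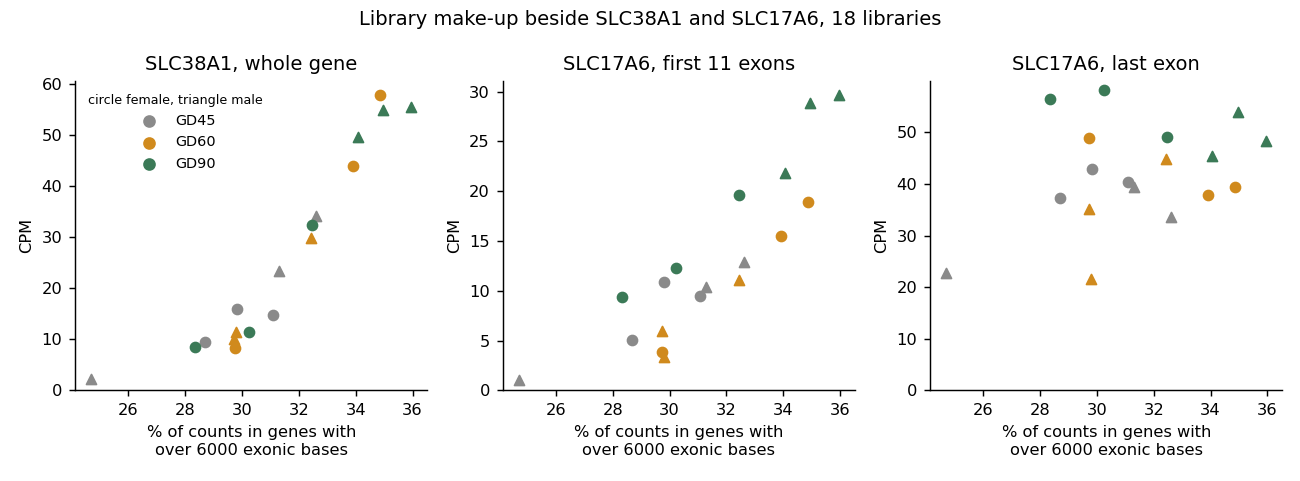
Level in CPM of SLC38A1 (left), the first 11 exons of SLC17A6 (middle) and its last exon (right) in each of the 18 libraries against the percent of that library's counts in genes with over 6000 exonic bases; colour gives the gestation day and shape the sex. The lowest share, 24.7%, goes with the lowest SLC38A1 level, 2.31 CPM, and the highest, 36.0%, with 55.6 CPM; the first 11 exons of SLC17A6 run from 0.989 to 29.6 CPM.

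The exon table showed which parts of a member moved. From GD60 to GD90, 27 exons of the 8 genes passed as higher and none as lower, where 11.1% of the 91617 exons tested were called. SLC17A7 had 11 of 11 tested exons called, with log2 changes from 1.43 to 2.50, and GLUL had 8 of 9, from 0.63 to 1.97. SLC38A3 had 4 of 11, SLC17A6 3 of 11 and SLC1A1 1 of 11, while none of the exons tested of SLC1A6 (7), SLC38A1 (10) and SLC17A8 (1) passed. From GD45 to GD60 only 1 exon of the 8 genes passed, exon 1 of SLC17A7 (1.39, adjusted p = 0.0375), beside 1.45% of all exons. That call was lost without any of 8 litters, and without the GD60 litter of 8 there were 3. Exons of a gene share reads and are not replicates, and reads in overlapping exons were not counted, so that the exon counts of SLC17A7 came to 20.3% of its gene counts.

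The last exon of SLC17A6, exon 12 with 2126 bases at chr2:37098992-37101117, held 77.1% of the gene's exon counts. It ran from 22.7 to 42.9 CPM at GD45, from 21.6 to 48.9 at GD60 and from 45.3 to 58.1 at GD90. The other 11 exons together ran from 0.989 to 12.9, from 3.38 to 18.9 and from 9.36 to 29.6 CPM. From GD60 to GD90 the last exon changed by 0.32 on the log2 scale (adjusted p = 0.236), and the other exons tested by 0.19 to 1.54, of which 3 passed. Taken over the last exon alone, the log2 ratio of SLC17A7 to SLC17A6 differed by 1.52 between GD60 and GD90, and taken over the other exons by 0.78, with an exact permutation p of 0.4. These splits were added after the data were seen. The share of SLC17A6 counts outside the last exon lay between 4.17 and 38%, lowest in the male of the GD45 litter of 8, the library with the lowest share of long genes.

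**Figure D5:**
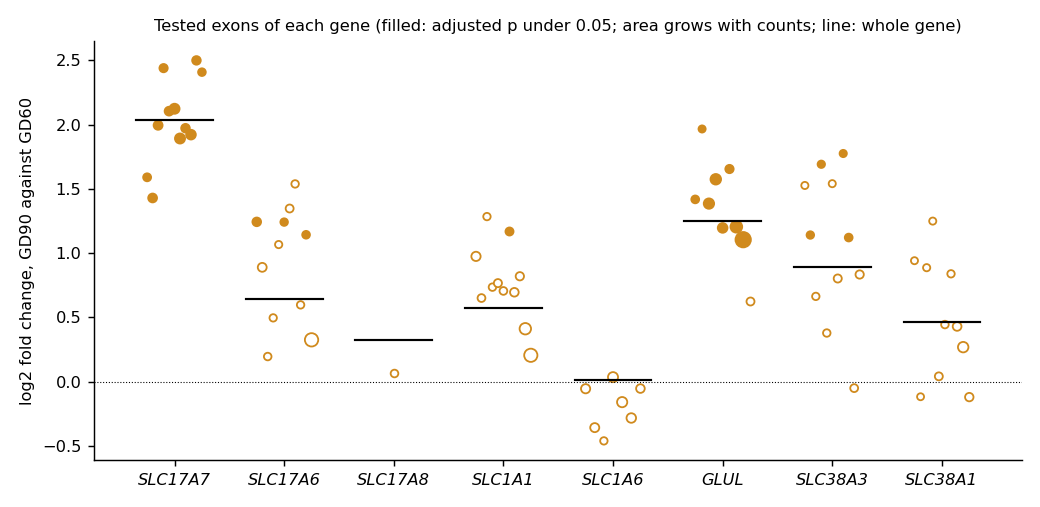
Log2 change from GD60 to GD90 of each exon tested of the members, from the edgeR fit on litters; filled points have adjusted p under 0.05, the area grows with the exon's counts and the line marks the whole gene. All 11 exons of SLC17A7 lie between 1.43 and 2.50, and the last exon of SLC17A6 lies at 0.32 with 3 filled points among its other exons.

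Within a sex the same test was run on the 18 libraries. From GD60 to GD90, 4 members were called in females (SLC17A7, GLUL, SLC38A3 and SLC1A1), where 27.1% of 16325 genes were called. In males the count was 5, with SLC17A6 added (0.97, SE 0.23, adjusted p = 0.00479), where 34.5% of genes were called. SLC17A6 changed by 0.38 (adjusted p = 0.244) in females. SLC38A1 changed by −0.96 (SE 0.69) in females and by 1.64 (SE 0.70, adjusted p = 0.0793) in males, and SLC1A6 by 0.14 and −0.09, none of them called. The share of counts in long genes was 29.7 to 34.9% in GD60 females and 28.3 to 32.5% in GD90 females. In males it was 29.7 to 32.4% at GD60 and 34.1 to 36.0% at GD90. The first 11 exons of SLC17A6 held 3.85 to 18.9 and 9.36 to 19.6 CPM in females, and 3.38 to 11.1 and 21.9 to 29.6 CPM in males. The part of this share in the values within a sex was not tested. From GD45 to GD60 no member was called in females and SLC17A7 was called in males (0.50, SE 0.13, adjusted p = 0.0365), beside 7.22% and 5.61% of genes. DESeq2 called SLC17A7 and SLC1A1 in females as well, as did the edgeR test without the male of the GD45 litter of 8, and 3500 genes had an unadjusted p under 0.05. The male call of SLC17A7 was lost, with log2 changes of 0.40 to 0.55 and adjusted p up to 0.139, when any of 7 libraries was left out: each male of GD60, the males of the GD45 litters of 8 and 16, the male of the GD90 litter of 11 and the female of the GD90 litter of 18.

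No member was called different between the sexes at any day. The largest differences were those of SLC38A1, with male minus female log2 values of 0.60 (SE 0.70) at GD45, −1.04 (SE 0.69) at GD60 and 1.56 (SE 0.70, adjusted p = 0.355) at GD90, and those of SLC17A7 lay between −0.16 and 0.05. At GD90 the sexes did not overlap for SLC38A1 (8.57 to 32.5 CPM in females, 49.7 to 55.6 in males) or for SLC38A3 (61.0 to 67.3 in females, 52.4 to 58.5 in males), whose male minus female log2 value was −0.28 (SE 0.13, adjusted p = 0.373). The share of counts in long genes did not overlap between the sexes at GD90 either. It ran from 28.3 to 32.5% in females and from 34.1 to 36.0% in males. Sex and this share could therefore not be told apart at that day. By the edgeR test of males against females, 0.0919%, 0.098% and 0.098% of genes (15, 16 and 16) were called at the 3 days, with 423, 784 and 2213 at an unadjusted p under 0.05. DESeq2 called 18, 21 and 52, and edgeR with litter as a fixed block 9, 9 and 10. No member was called in the test of whether the change between days differed by sex, where the share of all genes called was 0% for either step. The unadjusted count was 333 genes for GD45 to GD60 and 3232 for GD60 to GD90, and DESeq2 called 0 and 268. SLC38A1 had the largest such difference from GD60 to GD90, 2.60 (SE 0.99, adjusted p = 0.21), and it was called without the male of the GD45 litter of 8 (2.60, adjusted p = 0.0375).

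Lists of glutamate cycle genes, taken by family or role and including the members, moved as follows from GD60 to GD90. Among all genes tested, 18.7% were called higher and 18.7% lower in that step. In the SLC1 family 5 of 7 (SLC1A1 included) passed as higher and none as lower. The astrocyte carriers were among them: SLC1A3 rose by 1.04 (SE 0.10, adjusted p = 3.07e-05), from 115 to 168 CPM at GD60 to 269 to 358 at GD90. SLC1A2, the main glutamate carrier of the mature forebrain, rose by 2.87 (SE 0.52, adjusted p = 0.00141). It had the largest called rise of the genes in these glutamate lists, also over the whole span (3.81, SE 0.54). It ran from 2.72 to 25.3 CPM at GD60 and from 12.3 to 145 (median 81.0) at GD90. The GD90 libraries had the same order in SLC1A2 as in the share of counts in long genes. They ran from 12.3 CPM at 28.3% to 145 CPM at 36.0%. The highest GD60 levels, 20.6 and 25.3 CPM, came from the libraries with the highest shares of that day, 33.9 and 34.9%. The part of this share in the rise of SLC1A2 was not tested. In the SLC17 family 3 of 7 tested passed as higher, SLC17A6 and SLC17A7 included. In the SLC38 family 3 of 11 (SLC38A3 included) passed as higher and 1 as lower. The lower gene was SLC38A2, a glutamine carrier of many cells, which fell by 0.59 on the log2 scale (SE 0.11, adjusted p = 0.00204), from 102 to 145 CPM at GD60 to 72.9 to 95.5 at GD90. SLC38A5, a second glutamine exporter, changed by −0.12 (SE 0.13, adjusted p = 0.486).

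Among 15 enzymes of glutamate and glutamine metabolism, GLUL included, 5 passed as higher and 3 as lower from GD60 to GD90. Of all genes tested, 18.7% passed in each direction in that step. GLUD1, the glutamate dehydrogenase of mitochondria, rose by 0.93 (SE 0.12, adjusted p = 0.000162). ALDH18A1, which leads glutamate into proline, had the largest called fall in these glutamate lists from GD45 to GD60 (−0.31, SE 0.08, adjusted p = 0.0318). BCAT2, a branched-chain aminotransferase, had that of the whole span (−0.80, SE 0.12, adjusted p = 0.000189). All 5 mitochondrial carriers and exchanger subunits in the table passed as higher. Of 13 subunits of the proton pump that drives vesicle loading, 8 passed as higher and none as lower. ATP6V1G2, a brain subunit, rose by 0.53 (SE 0.13, adjusted p = 0.0251) from GD45 to GD60, the largest called rise in these glutamate lists there. With the members included, the median log2 change of the lists from GD60 to GD90 was 0.57 for SLC1, 0.33 for SLC17, 0.20 for SLC38 and 0.21 for the enzymes. It was 0.53 for the mitochondrial carriers and exchanger and 0.31 for the pump, beside −0.02 for all genes.

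The genes whose log2 CPM followed a member most closely over the 18 libraries were sought among 12809 genes, as a description with no test, since libraries share their day and litter. For SLC17A7 they were KCNJ9 (Pearson r = 0.99), a potassium channel subunit, CAMK2A (0.99), a kinase of excitatory synapses, and MAP2K1 (0.98). For SLC17A6 they were PPTC7 (0.96), CALCRL (0.96) and ETV1 (0.95), and for SLC17A8 ADRA1A (0.85), ZFP57 (0.83) and TMC6 (0.76). For SLC1A1 they were SGPP2 (0.99), AK5 (0.99) and CDK5R2 (0.98), and for SLC1A6 they included MUL1 (0.90) and HOOK2 (0.87). For GLUL they included NRSN1 (0.99) and CPLX2 (0.98), a gene of the vesicle release machinery. For SLC38A3 they included ENO2 (0.98), the neuronal enolase, and RASL11B (0.98). For SLC38A1 they were AFF4 (0.99), DIP2B (0.98) and USP34 (0.98), each with over 6000 exonic bases. Within single days the SLC38A1 values stayed between 0.97 and 1.00, whereas those of SLC17A7 ran from −0.10 to 0.81.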

How the data were processed

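Per the paper's methods, the authors trimmed paired reads with Trimmomatic, mapped them by HISAT2 on Sscrofa11.1, and assigned them to Ensembl features by featureCounts. The deposited gene and exon tables hold raw counts in 22 columns; 4 libraries had a second run (15.3 to 17.5% of their counts), which was summed to give 18 libraries. The transcript table was not used, since reads shared between transcripts were not counted there.

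Litter-mates were identified by the litter size their labels share at a day, an inference. Counts of each pair were summed, and 9 litters in 3 days were fitted with edgeR 4.0.16 in R 4.3.3 (filterByExpr, TMM factors, quasi-likelihood test). Within-sex, sex and interaction tests used all 18 libraries in 6 groups. The standard error is the log2 change divided by the square root of F. P-values of the litter fits and of the ratio tests measure the spread between these litters. Those of the within-sex, sex and interaction tests measure the spread between fetuses of a group and leave out the pairing by litter. CPM uses the total gene counts of a library without TMM factors, and levels per length are CPM per kilobase of exons. Scripts were tested on simulated data. Alternatives used DESeq2 1.42.0, limma 3.58.1 (litter block), other filters and scaling, and left out each library or litter. Litter-mates' deviations correlated at −0.09 to 0.42, not above 0.1 in each pair, and the block was therefore an alternative.

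The members and lists were chosen with earlier results of these data known. The text names all 8 members, SLC1A2, SLC1A3, SLC38A2, SLC38A5 and GLUD1, the called list gene with the largest rise and fall in each comparison, and the 3 closest correlates (mean of at least 1 CPM) of each member; some genes that this rule selects are not reported here. The GC-content, motif and start values come from RefSeq and Ensembl tables of Sscrofa11.1. Counting was not stated to use strand, so that reads of a gene and an antisense partner cannot be told apart.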

Additional observations from a re-analysis of the deposited data

Results flagged for a closer look

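In 4 of 27 sets of 6 libraries (a member, or the ratio, at a day), the highest or lowest library lay apart by Dixon's test at 95%, a test that chance alone passes about 1 time in 20. The male of the GD45 litter of 8 was lowest at GD45 for 3 members: SLC17A6 with 24.7 CPM (other GD45 libraries 45.9 to 58.1), SLC1A1 with 40.5 CPM (59.3 to 72.6) and GLUL with 141 CPM (187 to 219). The same library had the lowest share of counts in long genes, 24.7%, and both brains of that litter were labelled lighter (0.7135 and 0.6653 in the weight field, which the labels give in mg, against 1.55 to 1.86 in the other GD45 fetuses). Their part in the low levels was not tested. The male of the GD60 litter of 8 had the highest ratio of SLC17A7 to SLC17A6 at that day, 4.52, where the other GD60 libraries held 1.77 to 2.39, and also the lowest summed level of thalamic, midbrain and hindbrain markers, 53.3 CPM. Without both litters of 8, a choice made after the data were seen, the counts of members called in both sexes together stayed at 1, 5 and 6.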

How the results depend on the processing

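With both sexes together, 5 members were called from GD60 to GD90 and 6 from GD45 to GD90 under the main settings, and these counts stayed within 1.5 times of that under every alternative run. From GD45 to GD60, 1 member was called, and 2 with the likelihood ratio test, DESeq2, a filter of over 1 CPM in 3 litters, the litter as replicate block, or the share of long genes as covariate (chosen after the data were seen), and 1 to 2 when litters were left out. In females the count for that step was 0, but 2 with DESeq2, 1 without both fetuses of the GD45 litter of 8, and 0 to 2 without single libraries. In males it was 1, but 0 without TMM factors, without the filter, or in the 6 libraries compared alone, and 0 to 1 without single libraries; without the male of the GD45 litter of 8, or both its fetuses, the 1 member was SLC1A6 and not SLC17A7. The interaction from GD60 to GD90 gave 0 to 1 without single libraries, and the exons called from GD45 to GD60 were 1, or 0 to 3 without single litters. The GD90 minus GD60 log2 ratio, 1.33, was 1.77 in females, 0.90 in males and 0.78 over the other exons of SLC17A6. The GD90 minus GD45 log2 ratio, 1.67, was 1.93 in the exon table, 1.93 in females, 1.41 in males, 1.93 over the last exon and 0.93 over the other exons. The causes were not tested. The replicate block also moved SLC38A1 from GD45 to GD90 to an adjusted p of 0.108. Without TMM factors the median of all genes shifted from −0.02 to −0.11 in females from GD60 to GD90, and SLC1A1 there lost its call (0.39, adjusted p = 0.0913). No called value changed direction, while some values that were not called did change sign. Of 2200 member values under alternatives, 2157 kept their side of the threshold. With 3 litters a day, SLC17A8 at about 1 CPM and SLC38A1 with its wide spread had little precision.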
